A study of Mus musculus with 15 samples.

Results

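The 10 secreted signals of inflammation followed here were the chemokines Cxcl1, Cxcl2, Cxcl5, Ccl2 and Ccl7, the colony-stimulating factors Csf1, Csf2 and Csf3, and the interleukins Il1a and Il6, measured by bulk RNA-seq in a mouse model of pancreatic ductal adenocarcinoma (PDAC). They were taken by gene symbol, and all 10 were found among the 55291 genes of each count table. HY19636 is a mouse PDAC line labelled with mutant p53, derived in the C57BL/6 background from mice carrying 1 floxed p53 allele and Ptf1a-Cre, so every group here carried the same tumor genotype and came from a single line. In culture, in DMEM with 10% FBS, 3 cultures were treated with DON at 25 µM for 24 h, 3 were kept without Gln for 24 h and 3 were controls. DON (6-diazo-5-oxo-L-norleucine) is a Gln analog that blocks many enzymes that use Gln, and DRP-104 is a prodrug of it. In mice, HY19636 tumors grown orthotopically in the pancreas of B6J animals were taken after DRP-104 (n = 3) or vehicle (n = 3). By the methods the hosts were young adult females, and they kept their immune system and stroma. The labels do not say that cultures were set up separately, so p-values in culture measure the spread between these libraries, which may be technical.

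CXCL1, CXCL2 and CXCL5 bind the receptor CXCR2 and draw neutrophils into tissue, while CCL2 and CCL7 bind CCR2 and draw monocytes. CSF1 keeps macrophages alive, CSF2 (GM-CSF) and CSF3 (G-CSF) drive the production and activity of myeloid cells and neutrophils, and IL-1α and IL-6 are cytokines that set off the NF-κB and STAT3 programs in the cells that receive them. In PDAC such signals can be made by the malignant epithelium, by fibroblasts and by the myeloid cells that they attract. The mRNAs of this family are short-lived, and their genes are classic targets of NF-κB, C/EBP and AP-1.

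Several of the genes are close neighbors. In the coordinates of the deposited FPKM table, which are those of GRCm38, Cxcl5 (ENSMUSG00000029371, chromosome 5, 90759299 to 90761625), Cxcl1 (ENSMUSG00000029380, 90891241 to 90893115) and Cxcl2 (ENSMUSG00000058427, 90903899 to 90905909) lie on the plus strand of 1 cluster, with 10783 bases between Cxcl1 and Cxcl2. Ccl2 (ENSMUSG00000035385, chromosome 11, 82035571 to 82037453) and Ccl7 (ENSMUSG00000035373, 82045712 to 82047525) are 8258 bases apart. Csf2 (ENSMUSG00000018916, 54247271 to 54249667) and Csf3 (ENSMUSG00000038067, 98701263 to 98703629) lie elsewhere on chromosome 11. Csf1 (ENSMUSG00000014599) is on chromosome 3 from 107741048 to 107760469, Il1a (ENSMUSG00000027399) on chromosome 2 from 129299610 to 129309972 and Il6 (ENSMUSG00000025746) on chromosome 5 from 30013161 to 30019968. All 10 are annotated as protein coding, and each value below is a sum over the whole gene.

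Promoter sequences from RefSeq (GRCm38.p6) were at hand for 6 of the 10 genes: Cxcl1, Cxcl2, Csf1, Csf2, Il1a and Il6. Of these, 4 held a match to the NF-κB consensus in the 250 bases before the transcription start, read on both strands, and these are printed because NF-κB is the regulator that the family is best known for. The last 160 bases before the start are shown, 5′ to 3′ on the strand of the gene, with the NF-κB matches in capitals. Where a match reads on both strands, the capitals cover both.
Cxcl1, chr5:90891085-90891244, plus strand: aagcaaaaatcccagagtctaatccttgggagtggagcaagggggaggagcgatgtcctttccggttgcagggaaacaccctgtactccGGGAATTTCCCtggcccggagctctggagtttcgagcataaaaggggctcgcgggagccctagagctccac
Cxcl2, chr5:90903739-90903898, plus strand: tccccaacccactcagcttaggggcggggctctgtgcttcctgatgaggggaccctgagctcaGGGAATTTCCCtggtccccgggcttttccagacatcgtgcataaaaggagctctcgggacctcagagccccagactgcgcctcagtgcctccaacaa
Il6, chr5:30012954-30013113, plus strand: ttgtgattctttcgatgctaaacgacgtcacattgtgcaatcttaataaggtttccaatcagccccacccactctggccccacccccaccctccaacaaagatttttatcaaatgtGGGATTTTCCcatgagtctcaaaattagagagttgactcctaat
Csf1, chr3:107760470-107760629, minus strand: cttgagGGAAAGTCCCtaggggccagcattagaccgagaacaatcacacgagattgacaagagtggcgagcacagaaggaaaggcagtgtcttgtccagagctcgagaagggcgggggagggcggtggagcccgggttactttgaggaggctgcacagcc

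Cxcl1 and Cxcl2 held the same run of capitals, GGGAATTTCCC, with its first base at positions -71 and -97 from the start. Il6 held GGGATTTTCC with its first base at position -44. The match of Csf1 reads GGGACTTTCC on the other strand and covers positions -154 to -145. The NF-κB consensus was present in 7.01% of 27025 promoters searched in the same way. The AP-1 element TGANTCA, present in 6.87% of the promoters, was found in Il1a from position -12 and in Il6 from position -249. The element TTGCATCA, a C/EBP-ATF composite known from genes that respond to amino acid limitation, was present in 0.818% of promoters and in none of the 6, which says only that these letters are not in these windows. A match is a description of the sequence and not a measured site.

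The count tables hold the count of each gene after division by a size factor of its library ("normalized counts"), and whole read numbers could be recovered from them. The 9 culture libraries held 25.2 to 48.2 M (mega) reads and the 6 tumor libraries 16.3 to 20.7 M. In culture 69.6% to 72.7% of low read numbers were even, against 41.9% to 46.5% in tumors, so a culture read may not be an independent observation, and floors and counting intervals below cover counting error only. Levels are given per length as RPKM, the recovered reads per kilobase of the table's gene length per M recovered reads of the library. Epithelial markers, which the label of the line calls for, had a summed value of 410350 to 522605 normalized counts in the control cultures. Of 12 macrophage markers, 6 were at 0 reads in all 3 control libraries, Adgre1 and Lyz2 were at 0 in all 9 culture libraries, and Csf1r had at most 11 reads in any of them. Other markers of that list were present: it summed to 2046 to 2786 normalized counts in control cells, nearly all from Mrc1 and Cd68. In tumors Lyz2 ranged from 2340 to 5567 normalized counts. The library labelled DRP-104 tumor 3 stood apart, with all 9 T cell markers at their highest of the 6 tumors and a summed T cell value of 1627, against 64.9 to 130.5 in the other 5.

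In every culture library 5 of the 10 transcripts were present: Csf1, Cxcl5, Csf3, Cxcl1 and Csf2. The other 5 were at or near the floor. Csf1, the macrophage growth factor, had the highest level per length in control cells, with 3.04, 3.94 and 3.99 RPKM (mean 3.66 ± 0.535 SD, n = 3). Cxcl5 followed with 3.12, 2.68 and 3.40 RPKM, and the ranges of these leading transcripts overlapped. Csf3 was lower than both, with 1.20, 1.51 and 2.04 RPKM. Cxcl1 (0.465 ± 0.0749 RPKM) and Csf2 (0.460 ± 0.0783 RPKM) came next and overlapped each other, without overlapping Csf3.

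For the absent group, Ccl7 had no read in any of the 9 culture libraries, which allows up to 3 reads in a library, or at most 0.148 RPKM. Ccl2 had 2 reads in 1 of the 9 libraries, a control. Il6 had no read in the control or DON libraries and 3, 3 and 0 reads in the Gln-free libraries. Il1a had 8 reads in 3 of 9 libraries and Cxcl2 14 reads in 4 of 9. None of these 5 transcripts could be compared between culture conditions at this depth, and no fold is given for them. Cxcl1 and Cxcl2, which share the capital run printed above, differed in culture: Cxcl1 was read in 9 of 9 libraries, with 98 reads in all.

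**Figure D1:**
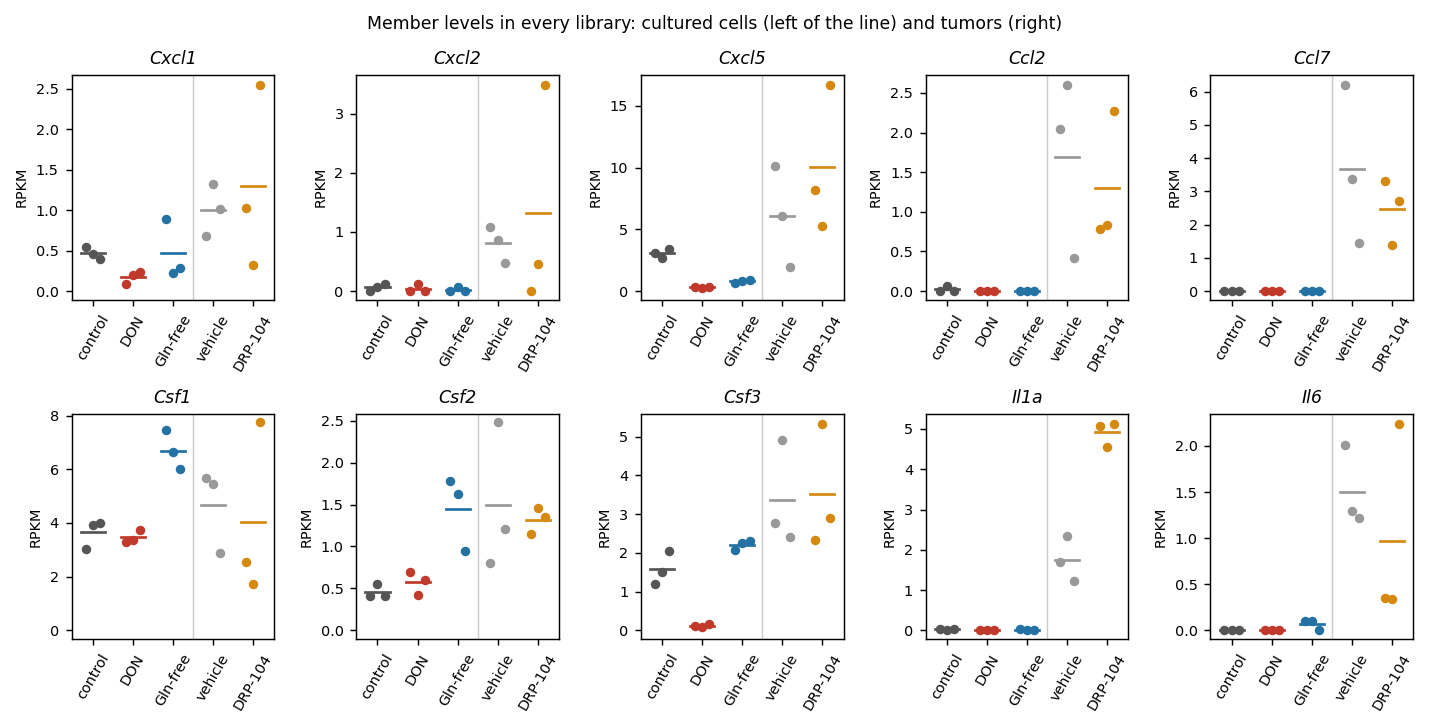
Level per length (RPKM, linear axis) of each gene in all 15 libraries, 3 per group, with points for libraries and a bar for the group mean; the vertical line parts cultured cells from tumors. Ccl2, Ccl7, Il1a, Il6 and Cxcl2 lie at or near 0 in the 9 cultures and above it in nearly all tumors, with 1 DRP-104 tumor at 0 for Cxcl2.

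To ask what Gln antagonism did to the signals that the tumor cells make themselves, DON cultures were compared with controls. Cxcl5 and Csf3 fell more than 10-fold, while Csf1 and Csf2 did not pass the test. Cxcl5, the CXCR2 ligand, stood at 16.7, 13.9 and 15.1 normalized counts after DON and at 176.1, 151.1 and 176.0 in the controls. Its mean after DON was 9.08% of the control mean (15.2 ± 1.43 against 167.7 ± 14.4, SD, n = 3 each), a log2 difference of -3.38 (SE 0.267, limma adjusted p = 6.96e-08). Csf3, which encodes the neutrophil factor G-CSF, had 4.77, 3.69 and 6.72 normalized counts after DON against 57.9, 72.4 and 90.3 in the controls. That is 6.88% of the control mean, with a log2 difference of -3.63 (SE 0.415, limma adjusted p = 3.03e-06). The DON libraries held only 4, 4 and 8 reads of Csf3, near the floor of 3 reads, so the size of its fall is approximate. Neither gene overlapped between the groups, as held for 71.9% of all genes tested.

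Of the 4 members that passed the filter of a mean of at least 10, 2 were called lower and 0 higher, where 34.7% of all 13556 genes tested were called lower, 33.3% higher and 68.1% in either direction. Csf3 passed this filter only through the controls and could only be called lower, so nothing is read from its place among the 2 lower. Csf1 ranged from 413 to 463 after DON and from 433 to 559 in the controls, and the groups overlapped (log2 difference -0.21, 95% interval -0.50 to 0.08, limma adjusted p = 0.174). Csf2, the gene of GM-CSF, had 16.7, 10.2 and 14.3 normalized counts after DON and 11.3, 14.99 and 10.4 in the controls (log2 difference 0.14, 95% interval -0.90 to 1.18, limma adjusted p = 0.803). Cxcl1 fell just under the filter with a mean of 9.82. It stood at 2.39, 5.54 and 6.72 after DON and at 17.6, 14.99 and 11.7 in the controls, without overlap, and its log2 difference of -1.49 had a limma adjusted p of 0.0709 when no filter was applied. Leaving out DON library 3 let it pass the filter and the test (log2 difference -1.73, adjusted p = 0.0355), which made 3 members called. In that fit Cxcl1 passed the filter only through the controls and could only be called lower, so nothing is read from this call. The DON libraries held only 2, 6 and 8 reads of Cxcl1, near the floor of 3 reads. The median of all genes moved from 0.02 to 0.13 on the log2 scale under quantile normalization, and neither call of a member changed with it.

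Withdrawal of Gln gave another pattern in the same family. Csf1 and Csf2 rose, Cxcl5 fell and Csf3 did not pass the test. Csf1 reached 915, 812 and 728 normalized counts without Gln against 408, 528 and 502 in the controls. This was 1.71 times the control mean (818 ± 93.8 against 479.5 ± 63.6, SD, n = 3 each), a log2 difference of 0.77 (SE 0.132, limma adjusted p = 0.000185). Csf2 reached 41.8, 38.2 and 22.0 against 10.7, 14.2 and 10.0, or 2.93 times the control mean, with a log2 difference of 1.44 (SE 0.408, limma adjusted p = 0.00695). Cxcl5 stood at 31.3, 39.2 and 44.0 against 165.9, 142.7 and 169.8, which is a 4.17-fold lower mean and a log2 difference of -2.04 (SE 0.225, limma adjusted p = 4.05e-06). None of these 3 genes overlapped between the groups, as held for 73.6% of all genes tested.

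Of the 5 members tested, 2 were called higher and 1 lower, where 69.4% of 13390 genes were called in either direction, 34.5% higher and 34.9% lower. Csf3 had 86.7, 92.9 and 94.1 normalized counts without Gln and 54.5, 68.4 and 87.1 in the controls, so that the groups overlapped by 1 library (log2 difference 0.40, 95% interval -0.10 to 0.91, limma adjusted p = 0.141). Under quantile normalization Csf3 was called higher, with a log2 difference of 0.59 and an adjusted p of 0.0329. Cxcl1 was uneven without Gln, with 25.1, 6.19 and 8.01 normalized counts against 16.6, 14.2 and 11.3, and did not pass the test (log2 difference -0.32, 95% interval -1.53 to 0.89, limma adjusted p = 0.629).

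**Figure D2:**
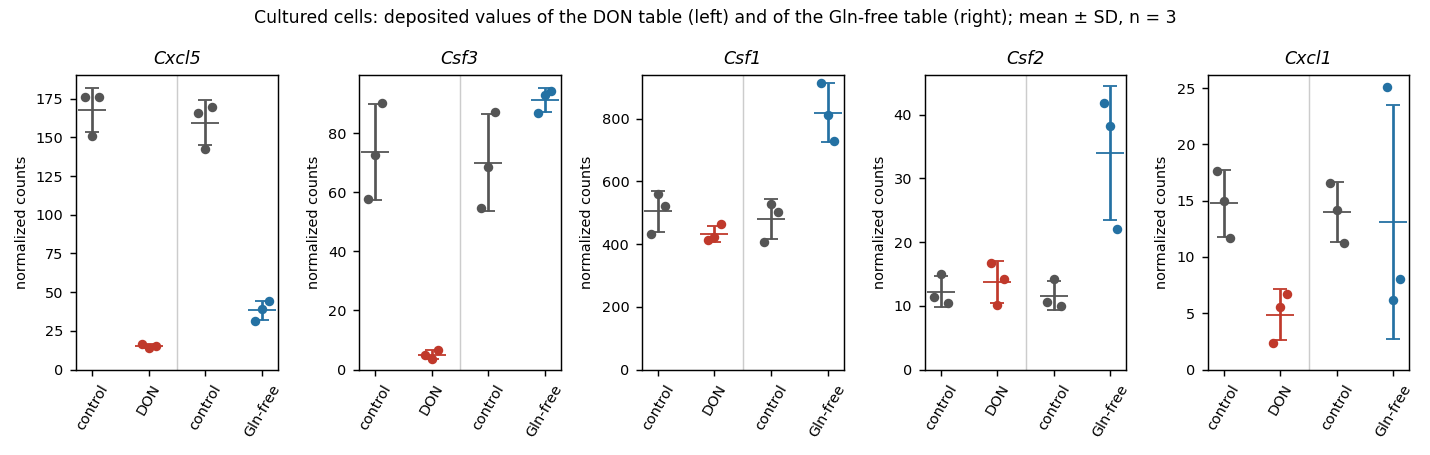
Deposited normalized counts (linear axes from 0) of the 5 transcripts present in culture, with points for libraries and bars for the mean ± SD of 3; left of each line is the DON table and right of it the Gln-free table, which hold the same 3 control libraries under separate scaling. Csf3 drops to 5.06 ± 1.54 with DON and stands at 91.2 ± 3.98 without Gln, and Csf1 and Csf2 rise in the Gln-free cultures.

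The DON and Gln-free comparisons share their control libraries, so the treatments were also set against each other directly, on reads of the 9 culture libraries scaled together. Cxcl5, Csf1, Csf2 and Csf3 were lower after DON than without Gln, which is 4 of the 5 members tested, where 32.2% of 13523 genes were called lower, 31% higher and 63.2% in either direction. None of the 4 overlapped, as held for 71.6% of all genes. Csf3 was 18.5 times higher without Gln (93.0 ± 4.08 against 5.01 ± 1.51 jointly scaled counts, log2 difference of DON minus Gln-free -4.00, SE 0.318, limma adjusted p = 3.87e-08). This ratio is approximate, since the DON libraries held 4, 4 and 8 reads of Csf3. Csf1 was 1.94 times higher without Gln (log2 difference -0.95, adjusted p = 8.06e-06) and Cxcl5 2.58 times higher (-1.30, adjusted p = 0.000457), by the same limma fit. For Csf2 the ratio was 2.55 (log2 difference -1.26, limma adjusted p = 0.0153), and this call was lost, with adjusted p-values of 0.0561 to 0.0687, when DON library 2, Gln-free library 1 or Gln-free library 2 was left out, and at 0.0566 with no filter. Cxcl1 overlapped between the treatments and did not pass (log2 difference -1.14, adjusted p = 0.115).

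The order of levels per length shifted accordingly. In DON cells Csf1 (3.46 ± 0.233 RPKM) stood above Csf2 (0.572 ± 0.138 RPKM) and Cxcl5 (0.307 ± 0.0284 RPKM), with no overlap between neighbors, and Cxcl1 and Csf3 overlapped below them. In Gln-free cells Csf1 (6.70 ± 0.716 RPKM) was followed by Csf3 (2.21 ± 0.111 RPKM) and Csf2 (1.45 ± 0.440 RPKM), again with no overlap, and Cxcl5 and Cxcl1 overlapped.

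The chemokines and cytokines outside the 10 members, given from lists, showed both directions. Of 25 further chemokine genes, 9 were tested after DON, with 2 higher and 4 lower (median log2 difference -0.91, all genes 0.02), and 10 without Gln, with 1 higher and 3 lower (median 0.05, all genes 0.01). Cx3cl1, fractalkine, fell in both (-4.31 and -2.71), and Ccl25, a chemokine of thymus and gut, rose in both (1.38 and 1.27, limma adjusted p = 2.7e-06 and 1.2e-05). Cxcl16 fell after DON (-0.91) and was at 0.09 without Gln, which did not pass. Ppbp and Cxcl3, further CXCR2 ligands of the chromosome 5 cluster, were chosen after their values were seen. Ppbp fell in both (-3.26 and -2.96). Cxcl3 fell after DON (-1.89, limma adjusted p = 0.00900) and did not pass without Gln (0.29, adjusted p = 0.542), and was lower after DON than without Gln (-2.15, adjusted p = 0.000958).

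Of 26 further cytokines, 13 were tested after DON, with 1 higher and 7 lower (median log2 difference -0.85), and 14 without Gln, with 4 higher and 8 lower (median -0.85). Lif, a cytokine of the IL-6 family, moved in opposite directions: it fell by 2.99 on the log2 scale after DON and rose by 0.61 without Gln, and DON minus Gln-free was -3.58 (limma adjusted p = 7.3e-10). Il33, an alarmin of the IL-1 family, fell in both (-3.89 and -1.06). Il34, the second ligand of the CSF1 receptor, rose in both (0.42 and 0.88). Clcf1, another member of the IL-6 family, rose without Gln (0.65) and did not pass after DON (-0.04).

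Receptors and decoys of the 10 signals were next. Of 17 listed, 8 were tested after DON, with 3 higher and 3 lower, and 7 without Gln, again with 3 higher and 3 lower. Il1rn encodes the IL-1 receptor antagonist, a secreted blocker of IL-1α and IL-1β. It was abundant in control cells (18107 ± 1412 normalized counts, n = 3) and stood at 4696 ± 52.5 after DON, a log2 difference of -1.94 (SE 0.0878, limma adjusted p = 2.78e-10). Without Gln it was at 15387 ± 869 against 17199 ± 1132 and did not pass (-0.16, limma adjusted p = 0.112). Il1r1, the signaling receptor of IL-1, fell in both (-1.56 and -0.94). Csf2ra, a chain of the GM-CSF receptor, rose in both (1.68 and 1.29), as did the scavenging receptor Ackr3 (1.21 and 1.02). Il6st, the shared signaling chain of the IL-6 family, rose without Gln (0.89) and did not pass after DON (0.19). Il6ra fell in both (-0.77 and -0.47), Il1rap fell without Gln (-1.29, adjusted p = 0.0470) and did not pass after DON (-0.25), and Ccr1 was at 25.0 normalized counts after DON against 2.11 (2.73) and was not tested without Gln. Ccr1 passed the filter only through the DON libraries and could only be called higher, so nothing is read from its place among the 3 higher. Cxcr1, Ccr2 and Csf3r had no read in the cultures, Csf2rb had at most 4 in a library and Cxcr2 at most 6, and Il1r2, Ackr1 and Ackr2 were below the filter.

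The NF-κB list covers factors, activators and inhibitors, and all 22 of its genes were tested. After DON 6 were higher and 11 lower (median log2 difference -0.29), without Gln 11 were higher and 4 lower (median 0.37), and DON minus Gln-free had 5 higher and 15 lower (median -0.67). Bcl3, a co-activator of NF-κB dimers, fell after DON (-3.41) and without Gln (-1.08). Map3k14, the kinase NIK of the alternative pathway, fell after DON (-2.55) and did not pass without Gln (-0.19). Traf1, an adaptor of TNF receptors and itself an NF-κB target, rose without Gln (2.35). Chuk, the kinase IKKα, rose in both (1.11 and 1.54), as did Birc2 (1.08 and 1.28).

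Genes of the C/EBP, AP-1 and STAT3 axis split in a like way, with 4 higher and 10 lower of 14 after DON and 6 higher and 2 lower without Gln. Socs1, a feedback inhibitor of cytokine receptors, fell after DON (-1.77) with Cebpa (-1.58) and Jak2 (-1.54). Cebpd, the acute-phase factor C/EBPδ, rose in both, by 1.86 without Gln. Fosl1, an AP-1 subunit downstream of ERK, rose without Gln (1.73) and was lower after DON than without Gln (-2.35). Among 17 factors that act on the stability of AU-rich mRNAs, 2 were higher and 10 lower after DON, and 6 higher and 7 lower without Gln. The endonuclease Zc3h12a (Regnase-1), which degrades cytokine mRNAs, fell in both (-1.74 and -1.01), Zfp36l2 fell by 1.87 on the log2 scale after DON, and Zc3h12c rose without Gln (1.69).

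Of 15 acute-phase and NF-κB output genes, 8 were tested in each comparison, with 2 higher and 5 lower after DON and 2 higher and 4 lower without Gln. The adhesion molecules Vcam1 (-3.61 and -1.29) and Icam1 (-2.96 and -0.92) fell in both, as did Cd14 (-2.50 and -2.10). Ptgs2, the inducible enzyme of prostaglandin synthesis, rose in both (2.02 and 3.96) and was lower after DON than without Gln (-1.91, limma adjusted p = 6.2e-09). For each of these lists the count stands beside the shares of all genes called above, which were 68.1%, 69.4% and 63.2%. All 10 epithelial markers fell in each treatment.

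Next, vehicle tumors were compared with the control cultures to find which signals appear once the same line grows in a pancreas. In the tumors 5 members were called higher and 0 lower, and they were the 5 at or near the floor in culture. These 5 passed the filter only through the tumors and could only be called higher, so nothing is read from their count against the 33.1% of 15030 genes called higher, 26.6% called lower and 59.7% called in either direction. Their reads are given instead of p-values. Ccl7, the CCR2 ligand, went from 0 reads in 3 libraries to 100, 56 and 23 reads, at least 26.0-fold higher against a floor of 3 reads per library. Il6 went from 0 reads to 44, 29 and 26 reads, at least 14.5-fold higher. Ccl2 had 113 reads in the 3 tumors and 2 in the 3 cultures, a ratio of 82.3 after scaling (exact 95% counting interval 22.3 to 688). Il1a had 211 against 6 reads, a ratio of 51.2 (23.2 to 141.2), and Cxcl2 52 against 8 reads, a ratio of 9.47 (4.47 to 23.1), with intervals of the same kind.

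The 5 transcripts that the cultures made did not pass. Csf3 (1.83-fold, limma adjusted p = 0.0626) and Csf2 (2.79-fold, adjusted p = 0.0516) were higher in each tumor than in each culture, as 65.9% of genes were parted in 1 direction or the other, Cxcl1 (1.84-fold) and Cxcl5 (1.66-fold) overlapped, and Csf1 was at 1.09-fold with a 95% interval of the log2 difference from -0.49 to 0.62. All 5 of these directions turned under quantile normalization, which moved the median of all genes from 0.09 to -0.14, and the calls of Ccl2 and Cxcl2 were lost with it (adjusted p = 0.117 and 0.835). Cxcl5 was called higher without vehicle tumor 3 (log2 difference 1.11, adjusted p = 0.00898), and Csf2 without vehicle tumor 1 (1.62, adjusted p = 0.0196) and with edgeR (1.46, adjusted p = 0.0489). Culture and tumor tables were scaled separately by the authors, and site and any difference in library preparation cannot be told apart here.

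Markers of several host cell types were also higher in the tumors. Of 9 T cell markers only 3 were tested, and 0 were called higher. In the control libraries 6 of the 9 were at 0 reads throughout, against 1 of the 9 in the vehicle tumors. The summed T cell markers were 64.9 to 128.7 normalized counts in vehicle tumors and 103.1 to 130.4 in control cultures. The control sum came wholly from the few markers read there, so the sums do not compare T cells between tumors and cultures. In vehicle tumors 11 of 12 macrophage markers and all 11 fibroblast markers passed the test as higher than in control cells, as did all 6 endothelial markers, the 6 neutrophil markers tested and 4 of the 5 acinar markers tested. In each control library 8 macrophage, 9 fibroblast, 9 neutrophil and 7 acinar markers of the lists had at most 3 reads. Where tested, such markers passed the filter only through the tumors and could only be called higher, so nothing is read from these counts. The summed acinar markers were 154.6, 218.9 and 2641 normalized counts in the vehicle tumors and 51.6 to 62.5 in the control cultures. The summed macrophage markers ranged from 9359 to 12298 normalized counts in the vehicle tumors and from 2046 to 2786 in the control cultures, where Mrc1 and Cd68 made up nearly all of the sum. The cultures and tumors were scaled separately for these sums. The summed fibroblast markers were 40756 to 84956 against 474 to 635. Among receptors for the signals, Csf1r was at 829 normalized counts in the vehicle tumors as a mean, Csf2rb at 338, Ccr2 at 69.2, Csf3r at 55.1 and Cxcr2 at 15.3. Csf1r is also on the macrophage list and Csf3r and Cxcr2 on the neutrophil list, so they are no further observation. No culture library held more than 11 reads of any of these receptors, so nothing is read from their higher level in tumors. Il1rn was lower in vehicle tumors than in control cells (-3.35, limma adjusted p = 8.5e-07). In these bulk samples fewer cells of a type and less RNA per cell cannot be told apart, and the part of host cells in the levels of the 10 members was not tested.

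In vehicle tumors the order of levels per length was Cxcl5 (6.05 ± 4.07 RPKM), Csf1 (4.67 ± 1.56), Ccl7 (3.68 ± 2.38) and Csf3 (3.37 ± 1.36), all in RPKM and each overlapping the next. Il1a, Ccl2, Il6, Csf2, Cxcl1 and Cxcl2 followed between 1.76 and 0.812 RPKM, each overlapping its neighbor in the order. The only gap was between Csf3 and Il1a. Across all 15 libraries the transcripts most like Csf1, by the distance between log2 values centered on each gene's mean, were Klf4 (distance 1.20), Fam241a (1.34) and Sorbs2 (1.36), out of 15114 genes searched. The nearest to Cxcl5 were Ccn2 (1.92), Sulf2 (1.92) and Ly6e (1.93). Csf1 and Cxcl5 had the highest mean normalized counts of the 10 both in control cells and in vehicle tumors.

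DRP-104 tumors were then compared with vehicle tumors, the comparison that corresponds in vivo to DON in culture. None of the 10 members passed limma at an adjusted p of 0.05, nor did any of the 15454 genes tested (0%), while 775 genes had an unadjusted p under 0.05. DESeq2 on recovered reads called 60 genes, of which 1 is a member, Il1a, and edgeR called 0 members. Il1a, the alarmin IL-1α, was the 1 member of 10 without overlap between the groups, a share near the 10.6% of all genes without overlap, so it is no result about the members. It had 197.8, 169.6 and 183.3 normalized counts in DRP-104 tumors against 59.9, 89.1 and 46.2 in vehicle tumors. The ratio of means was 2.82 (183.6 ± 14.1 against 65.0 ± 21.9, SD, n = 3 each), with a log2 difference of 1.53 (95% interval 0.80 to 2.26, unadjusted p = 0.00127 and adjusted p = 0.916 in limma). The DESeq2 adjusted p was 0.0294.

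The other 9 members overlapped, and the spread among tumors of a group was wide. Cxcl5 had 267, 164 and 502 normalized counts with DRP-104 and 301, 193 and 61.6 with vehicle (log2 difference 0.87, 95% interval -0.53 to 2.26). Csf3 had 65.2, 141.9 and 74.5 against 70.6, 133.6 and 64.5 (0.06, interval -0.93 to 1.05). Both fell in the DON cultures, whereas these tumor intervals include 0 and exclude a fall of 1 on the log2 scale. This holds only for the count table with all 6 tumors. Without vehicle tumor 3 the log2 difference of Cxcl5 was 0.22. In the FPKM table, described below, it was -0.55 (SE 0.255) for Cxcl5 and -0.34 (SE 0.183) for Csf3. Csf1 had 211, 137 and 588 against 426, 437 and 227 (-0.44, interval -1.62 to 0.75). Csf2 had 18.2, 21.9 and 19.6 against 11.6, 38.0 and 18.3 (-0.02, interval -1.38 to 1.33).

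Among the chemokines of monocytes, Ccl2 had 17.1, 17.3 and 45.1 normalized counts with DRP-104 against 40.2, 54.7 and 8.66 with vehicle, and Ccl7 had 52.4, 20.8 and 39.2 against 89.4, 52.0 and 22.1. Cxcl1 (19.3, 5.77 and 44.1 against 11.6, 24.1 and 18.3) and Cxcl2 (0, 9.23 and 66.7 against 20.6, 17.6 and 9.63) were most uneven within the DRP-104 group. Il6 had 7.49, 6.92 and 44.1 against 39.3, 26.9 and 25.0. DRP-104 tumor 3, the tumor with the high T cell markers, was the highest of its group for 6 of the 10 members, and the highest of all 6 tumors for Cxcl1, Cxcl2, Cxcl5, Csf1 and Il6. The share of all genes highest in that tumor was not counted, so this is no result about the members. Without DRP-104 tumor 3 the log2 difference of Il6 was -1.91, that of Cxcl2 -2.34 and that of Cxcl1 -0.64, none of which passed. Il1a, which was not highest in that tumor, remained between 1.31 and 1.78 whichever tumor was left out. Vehicle tumor 3 was the lowest of its group for 8 of the 10, and it also differed from the other vehicle tumors in its markers. Its summed acinar markers were 2641 normalized counts against 154.6 and 218.9 in the other vehicle tumors, and its summed neutrophil markers 139.6 against 659.6 and 811.7. It was not alone in this. DRP-104 tumor 2 was the lowest of its group for 6 of the 10, with a neutrophil sum of 75.0 and a macrophage sum of 6536, and DRP-104 tumor 1 had an acinar sum of 1022. Without vehicle tumor 3 the log2 difference of Cxcl5 was 0.22, that of Ccl2 -0.95 and that of Ccl7 -0.94, and no member was called. The shares of all genes lowest in these tumors were not counted, and the part of these cells in their values was not tested.

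**Figure D3:**
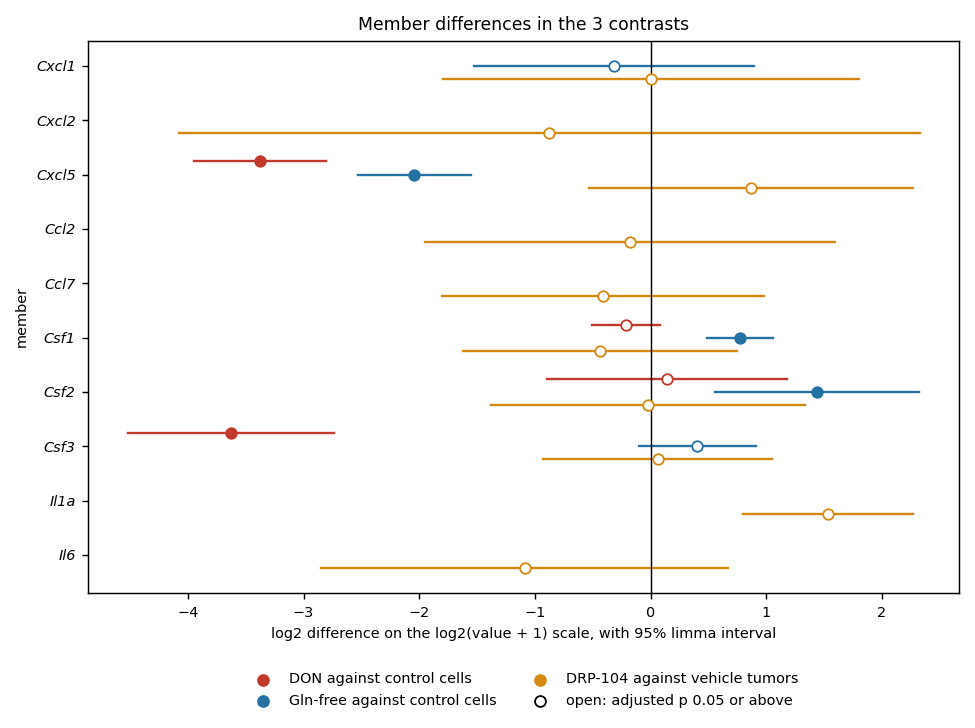
Log2 differences with 95% limma intervals for the 10 members in the 3 contrasts, treated minus control, on the log2(value + 1) scale; filled points passed an adjusted p of 0.05, and members under the filter of a contrast are not drawn. Cxcl5 and Csf3 lie below -3 with DON and near or above 0 with DRP-104, Csf1 and Csf2 lie above 0 without Gln, and all 10 tumor points are open.

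None of the macrophage, fibroblast, T cell, neutrophil, acinar or epithelial markers passed the test between the tumor groups. The fibroblast sum was 19907 to 34294 normalized counts in DRP-104 tumors and 40756 to 84956 in vehicle tumors, and the median log2 difference of the 11 markers was -1.09. The macrophage sum was 6536 to 13419 against 9359 to 12298, the neutrophil sum 75.0 to 780.4 against 139.6 to 811.7, and the epithelial sum 140098 to 198634 against 128833 to 175544. Of the 15 receptors, 24 further chemokines, 23 further cytokines and 22 NF-κB genes tested, none was called (median log2 differences 0.01, 0.45, 0.03 and 0.13). The part of these cells in the values of the 10 members was not tested.

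A second tumor table holds FPKM values, with 3 columns per group that were assigned by group only. The correlation of deviations between columns of the same name in this and the count table was -0.223 to 0.0837 over 10295 genes. Other pairings of columns were not tried, and whether the columns hold the same 6 tumors was not tested. There Il1a had 1.26, 1.37 and 4.13 FPKM with DRP-104 and 2.20, 2.14 and 2.68 with vehicle, and the log2 difference was -0.14. Ccl7 was the 1 member of 10 without overlap in this table, where 19.3% of 14199 genes had none, with 9.48, 9.08 and 6.67 FPKM against 4.71, 6.37 and 4.73 (log2 difference 0.58, unadjusted p = 0.0136 and adjusted p = 0.598 in limma). Csf1 was at 13.4, 11.3 and 7.70 FPKM against 7.24, 9.93 and 5.84. In the vehicle columns the highest levels were those of Cxcl5 (11.2 ± 2.43 FPKM) and Csf1 (7.67 ± 2.08 FPKM), and in the DRP-104 columns those of Csf1 (mean 10.8 FPKM), Ccl7 (8.41 FPKM) and Cxcl5 (7.52 FPKM). No member and 0% of all genes passed the test in this table.

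**Figure D4:**
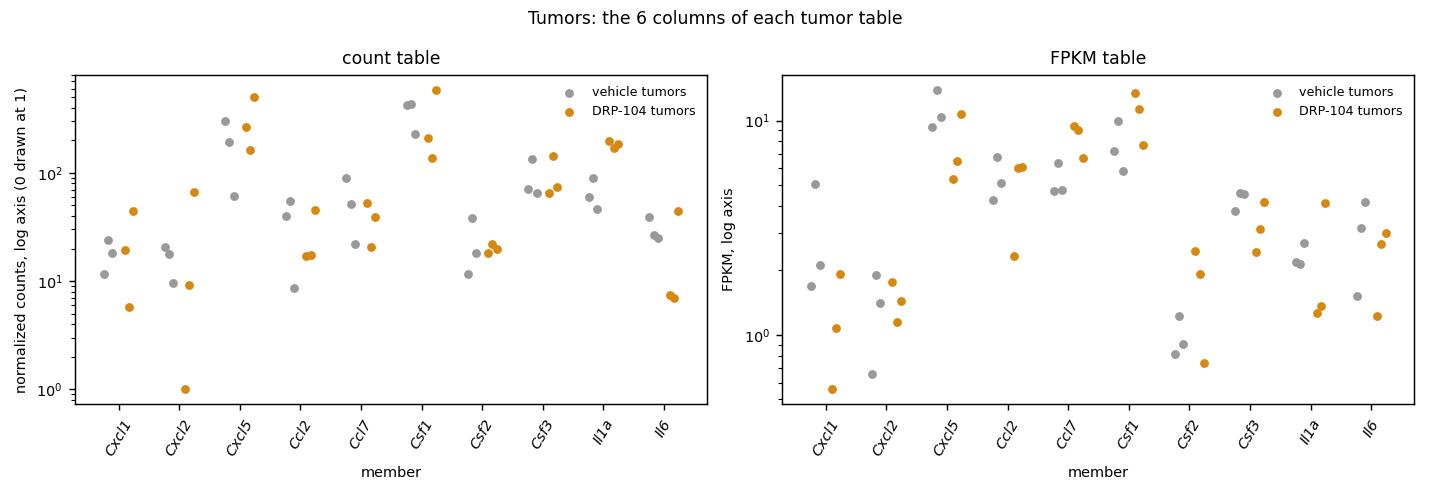
The 10 members in the 6 columns of the count table (left, normalized counts, log axis, a value of 0 drawn at 1) and of the FPKM table (right, log axis), with 3 points per group. Il1a is parted between groups in the count table only, and Ccl7 in the FPKM table only.

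Whether the effect of DRP-104 in tumors differed from that of DON in culture was tested directly as a difference of differences, on the deposited values of the 6 tumor, 3 DON and 3 control libraries, each treatment within its own table. It was called for Cxcl5 and Csf3, both with a higher value in tumors, where 19.1% of 15070 genes were called higher, 14% lower and 33.1% in either direction. For Cxcl5 the tumor effect minus the culture effect was 4.25 on the log2 scale (SE 0.701, limma adjusted p = 0.000501), and for Csf3 it was 3.69 (SE 0.578, adjusted p = 0.000341). The FPKM values, in which the tumor differences of both genes lay below 0, did not enter this test. Il1a gave 2.75 (SE 0.770, limma adjusted p = 0.0144) and is not counted here: it passed the filter only through the tumors, the value is 1.53 from the tumors less -1.22 from cultures with at most 4 reads each, and with no filter its adjusted p was 0.0532. Csf1 (-0.22, 95% interval -1.45 to 1.01) and Csf2 (-0.17, -1.61 to 1.28) did not pass. DON and DRP-104 differed in compound, dose, duration and site, which cannot be told apart in this comparison.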

How the data were processed

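RNA from 15 samples in 5 groups of 3 was analysed. The genotype of the line is given in part, and the rest is not reported here. Novogene made the libraries and, according to the methods, used HISAT2 for alignment and DESeq2 for testing. The submitters' processing notes also name CASAVA, STAR 2.5 and GRCm39, whereas the coordinates in the FPKM table are those of GRCm38. The counting tool and the use of strand are not given in the sources used here, so reads of overlapping genes could be shared. The deposited signal is the gene count that the authors divided by 1 size factor per library, within each of the 3 tables (DON, Gln-free and DRP-104). The deposited FPKM values of the tumors were normalized by the authors for gene length and library size. The columns of authors' fold changes and p-values in the files were not used. Control columns of the culture tables are headed with a vehicle label and were taken as controls from the tables' names. These headings, HY19_VEH with a number, are also the titles of the vehicle tumors, so the columns were not tied to single numbered samples, and the numbers only name the libraries left out. Their reads were the same in both tables for all genes.

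Values divided by what 1 read is worth in their library were whole reads in 100% of cases (tolerance 0.0051). The depth was 25.2 to 48.2 M reads in culture and 16.3 to 20.7 M in tumors. Since these are no longer counts, the main test was limma 3.58.1 (R 4.3.3, moderated with a trend on mean expression), fitted to log2(value + 1) for genes with a mean of at least 10, over the libraries of each comparison. P-values were adjusted by Benjamini-Hochberg over all genes tested, and calls were made at an adjusted p under 0.05. Differences are understated for low values on this scale. DON against Gln-free cells, and vehicle tumors against control cells, used recovered reads rescaled together by median-of-ratios size factors. RPKM was computed from recovered reads and the table's gene length. Named genes were the members, all receptors and decoys, up to 3 rises and 3 falls per list among called genes with a mean of at least 100, and the 3 nearest genes of the leading members. Members, lists and tests were chosen with earlier results of these data known. Alternatives were other pseudocounts (0.5, 5), filters (none, 50) and thresholds, quantile normalization, edgeR 4.0.16 and DESeq2 1.42.0 on recovered reads, the FPKM table, the replicate number as a block and leaving out each library. Added after the data were seen was a fit of the DON and Gln-free libraries alone, with and without the block. The scripts were tested on simulated data with known changes. Values were handled in Python 3.11 with pandas 2.3.3, numpy 2.4.6 and scipy 1.17.1, and plots drawn with matplotlib 3.10.9.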

Additional observations from a re-analysis of the deposited data

Results flagged for a closer look

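For Cxcl5 and Csf3 the effect of the DON prodrug in tumors differed from the effect of DON in culture by a test of the difference itself. The difference, tumor effect minus culture effect on the log2 scale, was 4.25 for Cxcl5 and 3.69 for Csf3. In culture Cxcl5 and Csf3 fell to 9.08% and 6.88% of the control mean, and in tumors their mean log2 differences were 0.87 and 0.06. The FPKM values of the tumors gave -0.55 and -0.34 instead and did not enter the test of the difference. Without vehicle tumor 3 the tumor difference of Cxcl5 was 0.22. Il1a also passed this test, with 2.75, but a culture difference of -1.22 between libraries with at most 4 of its reads enters it, and the call was lost with no filter (adjusted p = 0.0532), so it is not counted as a member that differed. In the same tumors the summed fibroblast markers were 19907 to 34294 normalized counts with DRP-104 and 40756 to 84956 with vehicle, without passing the test marker by marker, and their part in these differences was not tested. Groups of 3 libraries are too small for a test of single outlying libraries.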

How the results depend on the processing

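Of the 17 differences of single members that were called, 13 kept their direction and call under every alternative run and none turned. The FPKM values were an alternative for DRP-104 against vehicle tumors only. The 17 include the 5 members called in vehicle tumors against cells, which could only be called higher. They also include Il1a in the difference of effects, which is not counted above. Ccl7, Il6 and Il1a in vehicle tumors against cells are among the 13. So is Csf3 in DON against control cells, which passed the filter only through the controls. The tally is no measure of stability for these results. The 4 others were Csf2 (DON against Gln-free), Cxcl2 and Ccl2 (vehicle tumors against cells) and Il1a (difference of effects), with the values given above. Of 51 member results in all, 21 turned under at least 1 alternative, and the causes were not tested. Counts of called members moved with a minimum mean of 50, to 1 for DON and 0 for vehicle tumors against cells, where fewer genes are tested, and to 3 for the latter with quantile normalization. For DRP-104, DESeq2 called 1 member and 60 genes. A threshold of 0.01 left 3007 genes for the difference of effects.

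In the tumors the FPKM table turned Cxcl1 (-0.81), Cxcl2 (0.10), Cxcl5 (-0.55), Ccl7 (0.58), Csf1 (0.44), Csf2 (0.40), Csf3 (-0.34) and Il1a (-0.14). Its columns were not matched to single tumors, so processing and samples cannot be told apart there. Quantile normalization gave -0.19 for Cxcl1 and -0.048 for Csf3, a pseudocount of 0.5 gave -0.0070 for Cxcl1, and Cxcl2 was at 0.67 with both edgeR and DESeq2. Leaving out 1 tumor at a time gave -0.64 to 0.73 for Cxcl1, -2.34 to 0.70 for Cxcl2, -0.95 to 0.31 for Ccl2, -0.94 to 0.041 for Ccl7, -1.03 to 0.015 for Csf1, -0.40 to 0.42 for Csf2 and -0.28 to 0.38 for Csf3. For vehicle tumors against cells, quantile normalization gave -1.44 for Cxcl1, -0.10 for Cxcl5, -0.021 for Csf1, -0.97 for Csf2 and -0.28 for Csf3, and leaving out 1 library gave -0.028 to 1.11 for Cxcl5 and -0.10 to 0.37 for Csf1. For the difference of effects, Cxcl2 was 0.13 with quantile normalization, 1.48 with edgeR and 1.47 with DESeq2, and leaving out 1 library gave -0.71 to 1.32 for Cxcl2, -0.35 to 0.92 for Ccl2, -0.94 to 0.041 for Ccl7, -0.82 to 0.23 for Csf1 and -0.54 to 0.28 for Csf2. In culture leaving out 1 library gave -0.0041 to 0.33 for Csf2 (DON) and -0.88 to 0.046 for Cxcl1 (Gln-free).

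With the replicate number as a block, 0 members and 0 genes were called for DRP-104 against vehicle, and 4 members and 9239 genes for DON against Gln-free, against 4 and 9208 in those 6 libraries without the block. Deviations of same-numbered samples correlated at -0.438, 0.0544 and -0.457 in the tumors and at -0.0553, 0.0135 and 0.256 in culture, so the numbers were not taken to pair the samples. No paired analysis was possible for the comparisons with control cells because the control columns could not be tied to numbered samples. At this depth no fold could be given for the 5 members at or near the floor in culture.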
